A study of Caenorhabditis elegans with 12 samples.

Results

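The genes described here carry C. elegans symbols that name parts of the machinery of DNA replication and of the cell division cycle. They were chosen by symbol, with earlier results of these data known. The set holds all genes named mcm, cdc, cdk, cya, cyb, cyd, cye, orc, psf, pcn or rnr followed by a hyphen and a number. Sequence names in the deposited table had first been matched to the WBcel235 annotation. Of 54 annotated genes with such a symbol, 51 are among the 12894 genes of the table, and all 51 passed the filter on low values. The genes cdc-25.4, cya-2 and orc-4 were not analysed here.

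Messenger RNA of whole worms of the wild-type strain N2 was sequenced in 12 libraries, 3 for each of 4 groups. The larvae first spent 1 day (control) or 8 days (starved) without food in L1 arrest, the developmental halt of hatchlings that find no food. They then fed on bacteria with an empty vector (EV) or with a vector for RNA interference (RNAi) against daf-2, the insulin/IGF receptor gene, and were collected as early adults. Below, control EV and control daf-2 RNAi name the groups with the short arrest, and starved EV and starved daf-2 RNAi those with the long one. Every group has libraries lettered A, B and C. All groups are N2, and each library is a pool from about 1000 animals recovered per condition, so tissues and individuals are mixed. The control groups recovered for about 52 hours and the starved groups for about 68 hours, so the length of arrest cannot be told apart from that of recovery.

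A chromosome is licensed for replication when the origin recognition complex (ORC) and CDC-6 load the ring-shaped MCM helicase onto DNA, and the ring is switched on later with the help of CDC-7 kinase and the GINS complex, to which the psf genes belong. Cyclins bind and activate cyclin-dependent kinases (CDKs), CDC-25 phosphatases remove the inhibitory phosphates from CDKs, and the anaphase-promoting complex (APC) destroys mitotic cyclins. In adult worms the somatic cells no longer divide, while germ cells keep dividing and load their oocytes with messenger RNA of this machinery for the embryo.

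In the 9 libraries whose values could be turned back into reads, 21150912 to 30037731 reads fell on the listed genes, and the lowest numbers behind a value were 83 reads for cdc-50.B, 85 for psf-2 and 90 for cdk-14. The 51 genes took 0.814% to 1.255% of the summed level of the listed genes in each of the 12 libraries. The daf-2 level was 188, 155.5 and 91.6 CPM (read counts scaled by the authors to an adjusted library size; letters A, B and C, in this order throughout) in control EV and 317, 201.5 and 118 CPM in control daf-2 RNAi. In starved EV it was 193, 153 and 102 CPM, and in starved daf-2 RNAi 706, 289 and 111 CPM. The transcript was higher, not lower, in every library labelled daf-2 RNAi than in the EV library of the same letter, so the RNAi groups are named by their labels. By contrast sod-3, a gene that worms switch on when insulin signalling falls, was at 1.49 to 2.23 CPM in control EV and 9.46 to 12.5 CPM in control daf-2 RNAi, and at 2.71 to 4.31 CPM in starved EV and 9.87 to 14.8 CPM in starved daf-2 RNAi. The 25 germline markers summed to between 5424 and 13082 CPM in each library. None was at 0 in any library, but the same held for the moulting and sperm genes, so this does not show the stage. The design text calls the libraries of a group biological replicates and says no more of their origin, and p-values measure the spread between these libraries.

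By known role, 16 of the 51 genes serve origin licensing and the helicase, 3 the replication clamp and deoxynucleotide supply, 7 are cyclins, and 8 are cell cycle CDKs, CDC-25 and CDC-14 phosphatases and an APC subunit. Another 8 are CDKs known mainly from transcription or from neurons, of which CDK-7 also activates the cell cycle CDKs. The remaining 9 carry a cdc or mcm symbol and are known from splicing, protein folding, membranes and other work. Of these, the ATPase CDC-48 also takes part in replication, where it helps to unload the helicase. Replication or the division cycle is the main known role of 34 of the 51, and the other 17 are given as the symbol rule found them.

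The levels spanned a wide range. Per kilobase of annotated exon and averaged over the 12 libraries, the highest were the B-type cyclin cyb-3 with 520.1 CPM per kb, the ribonucleotide reductase subunit rnr-2 with 502 and the sliding clamp pcn-1 with 473. The lowest were cdk-14 with 3.002, cdc-50.B with 4.06 and the G1 cyclin cyd-1 with 7.86 CPM per kb. The 6 MCM2-7 subunits, which sit in the ring once each, lay close together, from 117 CPM per kb for mcm-4 to 199 for mcm-7. Of the cell cycle CDKs, cdk-1 (213 CPM per kb) stood above cdk-2 (20.8) and cdk-4 (10.8).

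**Figure D1:**
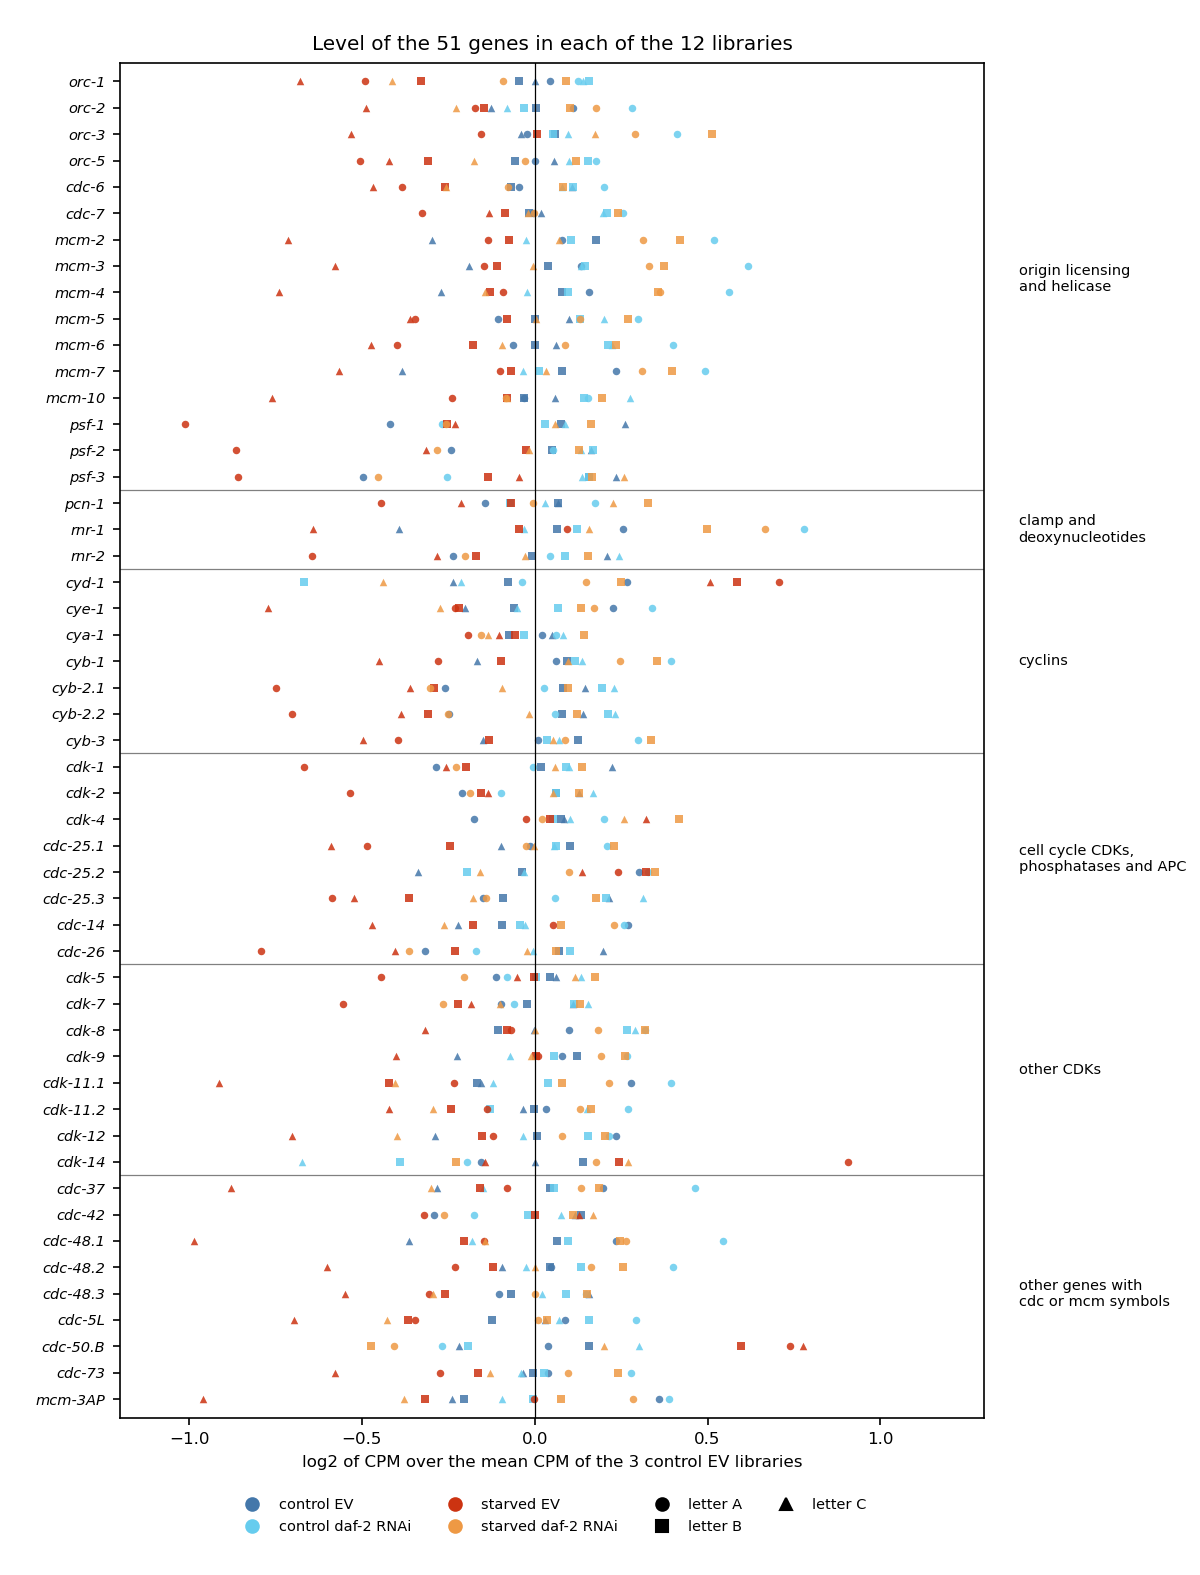
Level of each of the 51 genes in each of the 12 libraries, as log2 of CPM over the mean of the 3 control EV libraries (x axis), with genes in rows grouped by role, colours for groups and marker shapes for letters. Starved EV points lie mostly to the left of 0, while cyd-1 and cdc-50.B have all 3 starved EV points to the right of the control EV points.

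After 8 days of arrest on EV, 6 of the 51 genes fell against 1 day, namely the origin licensing genes orc-1, orc-5 and cdc-6, the phosphatase genes cdc-25.1 and cdc-25.3, and cdc-5L. A single gene, cdc-50.B, rose, and 44 did not pass the test (limma, Benjamini-Hochberg adjusted p under 0.05 over all 12830 genes tested). The 7 calls are 13.7% of the set against 17.7% of all genes tested; for falls alone the shares were 11.8% against 6.12%, and for rises 1.96% against 11.5%. The median change was -0.31 on the log2 scale, a fold of 0.808, against 0.03 for all genes tested, and 46 of the 51 changes were negative. The gap was smaller against more abundant genes. When only the 8835 genes averaging 5 CPM or more were tested, which kept all 51, the median of those genes was -0.13. In that fit 5 of the 51 were called, all lower, and 1335 of the 8835 genes (15.1%), of which 626 were higher. The shares for all genes therefore include many low genes that the set lacks. In 19 of the 51 all 3 starved EV libraries lay under all 3 control EV libraries, 37.3% against 16.7% of all genes, and in 2 they lay above them, 3.92% against 23.4%. Because whole animals were sequenced, fewer dividing or germ cells and less RNA per cell cannot be told apart. The calls rest on few libraries. None was left when starved EV C or A was left out, or control EV C or B. The same fits called 5.26%, 5.89%, 5.79% and 7% of all genes, in that order, against 17.7% with all libraries. Of the 7, 2 were left without control EV A (6 calls in all, 16.4% of all genes) and 2 without control daf-2 RNAi B (13.6%). Without control daf-2 RNAi C 3 were left (12.8%), and without starved daf-2 RNAi A also 3 (14.9%). The median stayed between -0.41 and -0.20 whichever library was left out. Quantile normalization, which shifts the median of all genes by -0.10, left 1 call, where 11.6% of all genes were called. The median was then -0.14 against -0.07 for all genes, a gap of -0.07 where the deposited values gave -0.33.

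Within starved worms, 7 of the 51 genes rose from EV to the daf-2 RNAi label, namely the ORC genes orc-3 and orc-5, the helicase genes mcm-5 and mcm-6, the B cyclin genes cyb-1 and cyb-3, and cdc-25.1. The gene cdc-50.B fell and 43 did not pass, so that 15.7% were called, the same share as the 15.7% of all genes. For rises alone the shares were 13.7% against 3.8%, and for falls 1.96% against 11.9%. The median change was 0.36, a fold of 1.29, against 0.00 for all genes tested, and 47 of 51 changes were positive. For the 8835 genes averaging 5 CPM or more the median was 0.115. When only these were tested, the set had 7 genes higher and 1 lower, and 1329 of the 8835 (15%) were called, of which 413 were higher. All 3 starved daf-2 RNAi libraries lay above all 3 starved EV libraries for 20 genes, 39.2% against 13.6% of all genes, and below them for 2, 3.92% against 21.8%. Libraries of the same letter deviated together in this comparison, and a fit with the letter as a block called 43 of the 51, 41 higher and 2 lower, where it called 47.9% of all genes, 23.7% as higher and 24.3% as lower. That block gives each letter the same effect in all 4 groups, and with letter effects of their own in each arrest length 45 of the 51 were called, 43 higher and 2 lower, where 57.7% of all genes were. Without the block, no call was left when starved daf-2 RNAi B was left out, or starved EV C or A, and 1 without starved daf-2 RNAi A, while 4, 5, 4 and 4 were left without control EV B, control EV C, control daf-2 RNAi B and control daf-2 RNAi C. Both comparisons use the same 3 starved EV libraries, so their opposite signs are not independent of each other.

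**Figure D2:**
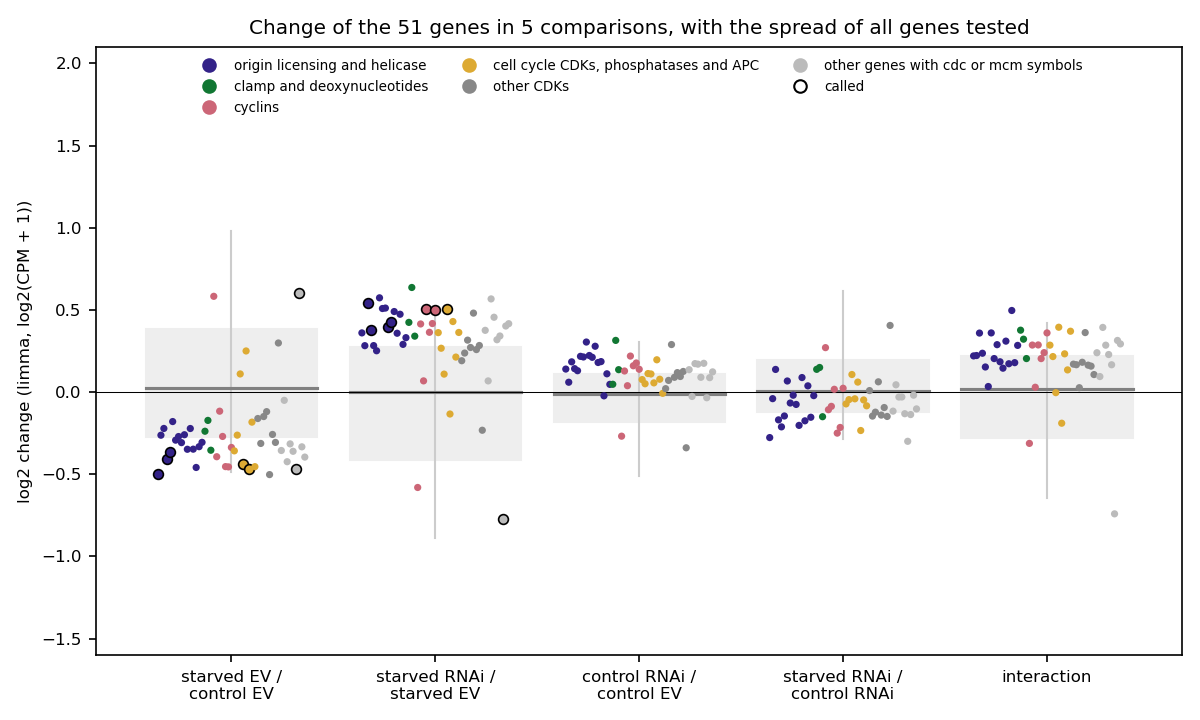
Log2 change of the 51 genes (points coloured by role; black outline, called by limma) in the 5 comparisons on the x axis, over a grey box and line for the 25th to 75th and the 5th to 95th percentile of all 12830 genes tested, with their median as a thick line. Most points are below 0 in starved EV over control EV (46 of 51) and above 0 in starved daf-2 RNAi over starved EV (47 of 51), and the only outlined points are in these comparisons.

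All 16 origin and helicase genes had a negative change after long arrest on EV, of which 3 were called (18.8%, against 6.12% of all genes), and all 16 had a positive one under the daf-2 RNAi label in starved worms, of which 4 were called (25%, against 3.8%). The large ORC subunit gene orc-1 (Y39A1A.12, chromosome III, 10643129 to 10646058 on the forward strand in WBcel235) was at 231, 217 and 224 CPM in control EV and 159, 178 and 140 CPM in starved EV, with no overlap. It fell by 0.50 ± 0.14 (log2, SE; adjusted p = 0.029). Control daf-2 RNAi libraries held 244, 250 and 247 CPM and starved daf-2 RNAi libraries 210.2, 239 and 168 CPM, of which B was above and A and C were below all control EV libraries, with C inside the starved EV range. The change between the starved groups was 0.36 ± 0.14, with an adjusted p of 0.0841 (limma) and 0.0111 with the replicate block.

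Another subunit of the complex, orc-5 (ZC168.3, chromosome IV), had 81.7, 78.5 and 84.98 CPM in control EV, 92.4, 90.9 and 87.6 CPM in control daf-2 RNAi, 57.6, 65.98 and 60.98 CPM in starved EV and 80.1, 88.9 and 72.4 CPM in starved daf-2 RNAi. The starved EV libraries were below all 9 others. It was called in both directions, with a change of -0.41 ± 0.11 from control EV to starved EV (limma adjusted p = 0.0256) and of 0.38 ± 0.11 from starved EV to starved daf-2 RNAi (limma adjusted p = 0.0349). Levels of orc-3 (Y119D3B.11, chromosome III) were 57.6, 60.9 and 56.9 CPM in control EV, 77.7, 60.7 and 62.5 CPM in control daf-2 RNAi, 52.6, 58.8 and 40.4 CPM in starved EV and 71.5, 83.4 and 66.1 CPM in starved daf-2 RNAi. Here the EV groups overlapped (change -0.22 ± 0.15, limma adjusted p = 0.296), and the rise between the starved groups was 0.54 ± 0.15 (limma adjusted p = 0.0332).

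The MCM loader cdc-6 was at 112, 111 and 125 CPM in control EV, 133, 125 and 122 CPM in control daf-2 RNAi, 88.8, 96.9 and 83.9 CPM in starved EV and 109.8, 123 and 96.97 CPM in starved daf-2 RNAi. Starved EV again stood apart from control EV, and cdc-6 fell by 0.36 ± 0.12 (log2; limma adjusted p = 0.0461). Under the daf-2 RNAi label it was higher in starved worms by 0.28 ± 0.12, at an adjusted p of 0.103 with limma and 0.0234 with the replicate block. These groups just failed to overlap, with 96.85 CPM in starved EV B and 96.97 CPM in starved daf-2 RNAi C.

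Of the 6 subunit genes of the MCM ring, mcm-5 (R10E4.4) and mcm-6 (ZK632.1), both on chromosome III, were called between the starved groups. For mcm-5 the libraries gave 319, 343 and 368 CPM in control EV, 422, 376 and 395 CPM in control daf-2 RNAi, 270, 325 and 267 CPM in starved EV and 376, 414 and 344 CPM in starved daf-2 RNAi. Every starved daf-2 RNAi library exceeded every starved EV library, and mcm-5 rose by 0.40 ± 0.13 (limma adjusted p = 0.0499). For mcm-6 the values were 366, 382 and 399 CPM in control EV, 504, 443 and 447 CPM in control daf-2 RNAi, 290, 338 and 275 CPM in starved EV and 406, 449.8 and 358 CPM in starved daf-2 RNAi, with starved EV below all other groups. It rose by 0.42 ± 0.13 between the starved groups (limma adjusted p = 0.0433), and its change from control EV to starved EV was -0.35 ± 0.13 (limma adjusted p = 0.0735).

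The other 4 subunits were not called but had changes of similar size, with libraries lettered C well below A in each group. Levels of mcm-2 were 414, 443 and 319 CPM in control EV, 561, 421 and 385 CPM in control daf-2 RNAi, 357, 372 and 239 CPM in starved EV and 486, 524 and 412 CPM in starved daf-2 RNAi. Those of mcm-3 were 406, 380.1 and 324, then 568, 409 and 406, then 334, 343 and 248, then 465, 479 and 368 CPM in the same order of groups. For mcm-2 and mcm-3 the starved groups did not overlap, while the EV groups did.

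In the case of mcm-4, control EV had 329.7, 312 and 245 CPM, control daf-2 RNAi 437, 316 and 291 CPM, starved EV 278, 270.2 and 177 CPM and starved daf-2 RNAi 380.3, 379 and 268 CPM. For mcm-7 the same groups had 549.8, 493 and 358, 657, 471 and 457, 435, 446 and 315 and 579, 615 and 477 CPM. The starved groups overlapped for mcm-4 and not for mcm-7. Between them the changes of mcm-2, mcm-3, mcm-4 and mcm-7 were 0.57 ± 0.20, 0.51 ± 0.18, 0.51 ± 0.22 and 0.49 ± 0.21, with limma adjusted p of 0.0707, 0.07, 0.116 and 0.111. With the replicate block the adjusted p were 0.00189, 0.00231, 0.00201 and 0.00402, since within each letter the starved daf-2 RNAi library was higher, by 1.33 to 1.72 times over these 4 genes. From control EV to starved EV their changes were -0.29, -0.27, -0.31 and -0.22, none of them called.

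The remaining 6 licensing and helicase genes are orc-2, the kinase cdc-7, the replication factor mcm-10 and the GINS genes psf-1, psf-2 and psf-3, none called without the block. Their changes after long arrest on EV ran from -0.46 (psf-1) to -0.18 (cdc-7), and those under the daf-2 RNAi label in starved worms from 0.25 (cdc-7) to 0.47 (psf-1). The GINS genes are short, and their A libraries were the low ones, as in starved EV, where psf-1 had 24.2, 40.95 and 41.6 CPM and psf-3 34.03, 56.3 and 59.8 CPM.

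**Figure D3:**
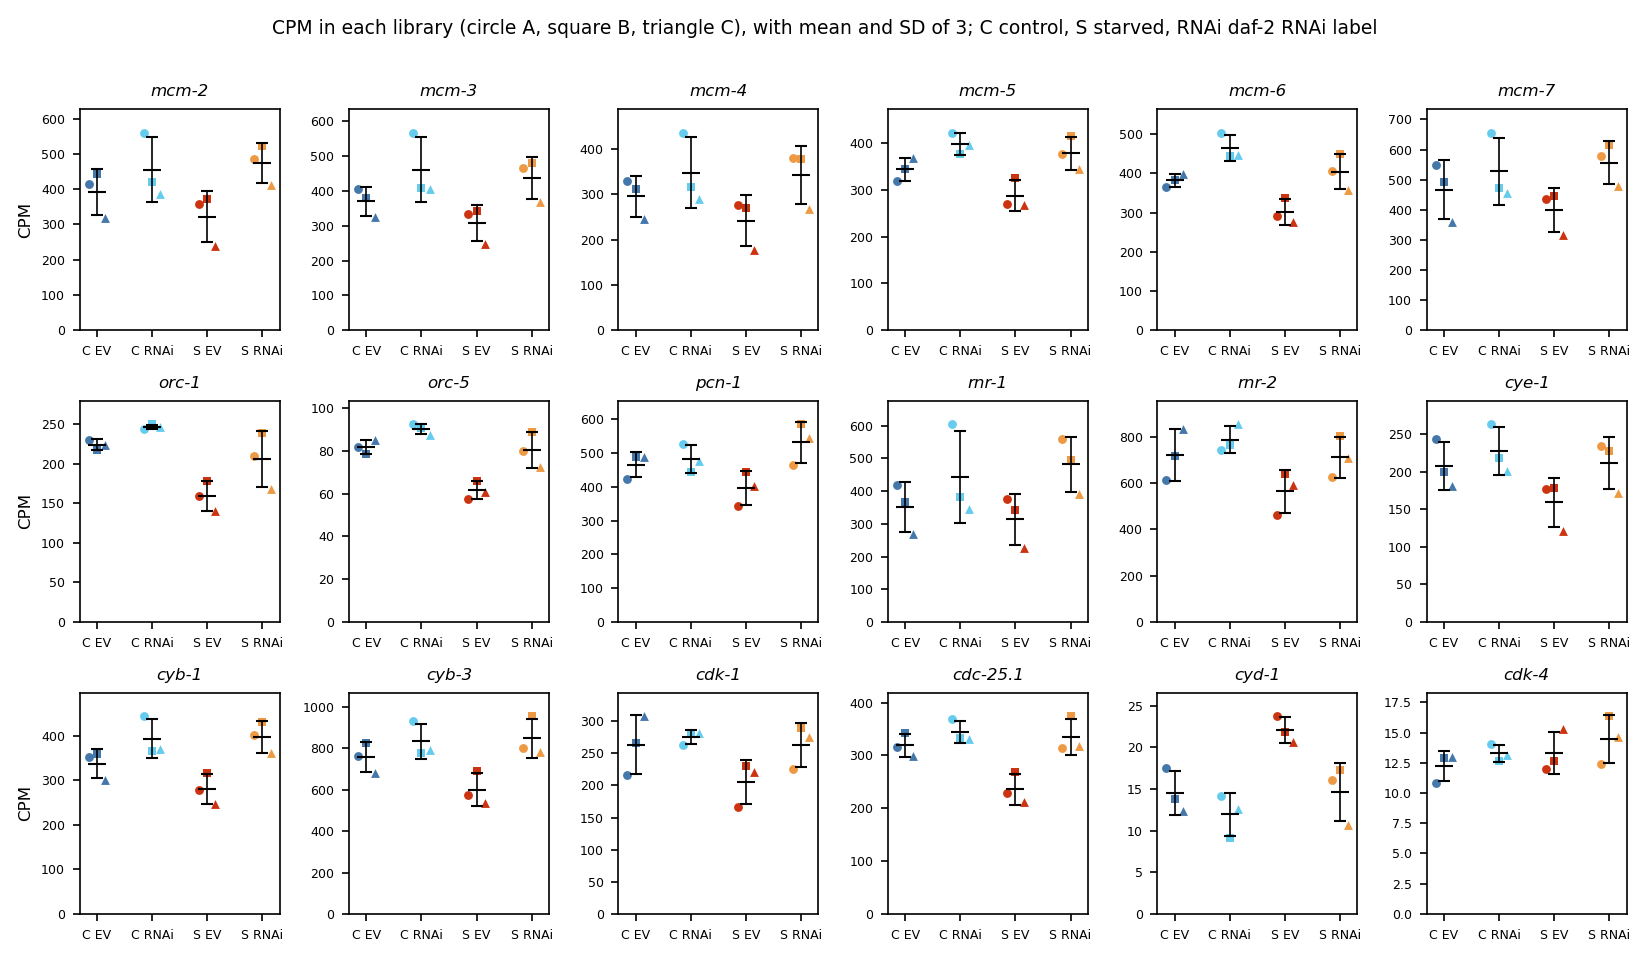
CPM (y axis, from 0) of 18 of the genes in the 4 groups on the x axis, with 1 point per library and the mean and SD of 3 libraries. The starved EV libraries are the low group for most genes, as for orc-5 with 61.5 ± 4.202 CPM against 81.7 ± 3.22 CPM in control EV (SD, n = 3), and the high group for cyd-1 with 22.1 ± 1.55 against 14.5 ± 2.66 CPM.

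None of the genes for the clamp and for deoxynucleotide supply was called without the block. The clamp gene pcn-1, whose protein tethers DNA polymerase, was at 422, 487 and 488 CPM in control EV, 525, 443 and 476 CPM in control daf-2 RNAi, 342, 444 and 402 CPM in starved EV and 464, 584 and 544 CPM in starved daf-2 RNAi. The starved groups did not overlap, with a change of 0.42 ± 0.14 at a limma adjusted p of 0.0596, or 0.00762 with the replicate block. For rnr-1, the large subunit of ribonucleotide reductase, the levels were 419.6, 367 and 268 CPM in control EV, 604, 383 and 344 CPM in control daf-2 RNAi, 375, 341 and 225 CPM in starved EV and 558, 496 and 392 CPM in starved daf-2 RNAi. It had the largest positive change of the 51 between the starved groups, 0.64 ± 0.25 (limma adjusted p = 0.0975; 0.000822 with the replicate block).

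The small subunit gene rnr-2 was at 612, 716 and 833 CPM in control EV, 742, 766 and 853 CPM in control daf-2 RNAi, 461, 640.1 and 592 CPM in starved EV and 626, 802 and 707 CPM in starved daf-2 RNAi. Letter A was its lowest library in every group, and the highest for rnr-1. The change between the starved groups was 0.34 ± 0.17 (limma adjusted p = 0.16; 0.0149 with the replicate block). After long arrest on EV, pcn-1, rnr-1 and rnr-2 changed by -0.24, -0.17 and -0.35, none called.

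Among the 7 cyclins, the mitotic B-type cyclins cyb-1 and cyb-3 rose between the starved groups, while cyd-1, not called, had changes of the opposite sign. Levels of cyb-1 (ZC168.4, chromosome IV) were 352, 359.8 and 300.2 CPM in control EV, 443, 365 and 370.4 CPM in control daf-2 RNAi, 278, 315 and 247 CPM in starved EV and 400.4, 431 and 360.4 CPM in starved daf-2 RNAi. The rise was 0.51 ± 0.14 (limma adjusted p = 0.0305), with no overlap, while the EV groups overlapped at a change of -0.27 ± 0.14 (limma adjusted p = 0.17). For cyb-3 (T06E6.2, chromosome V) the libraries gave 763, 826 and 682 CPM in control EV, 932, 776 and 794 CPM in control daf-2 RNAi, 576, 691 and 536 CPM in starved EV and 804, 955 and 785 CPM in starved daf-2 RNAi. It rose by 0.50 ± 0.15 (limma adjusted p = 0.0433), again without overlap.

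The near-identical B cyclin genes cyb-2.1 and cyb-2.2, whose reads may not be separable, moved alike, with changes of -0.45 and -0.46 after long arrest on EV (limma adjusted p = 0.0626 and 0.0548) and of 0.36 and 0.42 between the starved groups (limma adjusted p = 0.121 and 0.0749). Cyclin E, cye-1, which drives entry into S phase with CDK-2, was at 243, 199 and 181 CPM in control EV, 263, 218 and 201 CPM in control daf-2 RNAi, 177, 179 and 122 CPM in starved EV and 234, 228 and 172 CPM in starved daf-2 RNAi. Starved EV was under control EV without overlap, by -0.39 ± 0.19 (limma adjusted p = 0.14), and the starved groups differed by 0.41 ± 0.19 (limma adjusted p = 0.129; 0.00337 with the replicate block). Cyclin A, cya-1, had changes of -0.12 and 0.07 in these comparisons.

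Cyclin D, cyd-1, which works with CDK-4 in the G1 phase of larval somatic cells, was at 17.5, 13.8 and 12.3 CPM in control EV, 14.2, 9.15 and 12.5 CPM in control daf-2 RNAi, 23.7, 21.8 and 20.7 CPM in starved EV and 16.1, 17.3 and 10.7 CPM in starved daf-2 RNAi. All 3 starved EV libraries were above all 9 others. The change after long arrest on EV was 0.58 ± 0.20, a fold of 1.498, and missed the threshold (limma adjusted p = 0.0627). Between the starved groups it was -0.58 ± 0.20 (limma adjusted p = 0.068; 0.0127 with the replicate block).

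Of the cell cycle kinases, cdk-1, the mitotic CDK, was at 217, 267 and 308 CPM in control EV, 263, 281 and 282 CPM in control daf-2 RNAi, 166, 229.9 and 221 CPM in starved EV and 225, 289.8 and 275 CPM in starved daf-2 RNAi. For cdk-2, the partner of cyclin E, the groups had 43.2, 52.2 and 54.6, 46.7, 52.2 and 56.2, 34.5, 44.9 and 45.6 and 43.9, 54.6 and 51.9 CPM. Letter A was the lowest library of each group for both genes, and the EV groups overlapped. Changes after long arrest on EV were -0.36 ± 0.16 for cdk-1 and -0.26 ± 0.15 for cdk-2 (limma adjusted p = 0.129 and 0.204), and between the starved groups 0.36 ± 0.16 and 0.27 ± 0.15 (limma adjusted p = 0.131 and 0.197; 0.00639 and 0.013 with the replicate block).

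The G1 kinase gene cdk-4 was low, at 10.9, 12.9 and 12.98 CPM in control EV, 14.1, 12.7 and 13.1 CPM in control daf-2 RNAi, 12.03, 12.6 and 15.3 CPM in starved EV and 12.4, 16.4 and 14.6 CPM in starved daf-2 RNAi. All 4 groups overlapped. Its changes were 0.11 ± 0.15 after long arrest on EV and 0.11 ± 0.15 between the starved groups (limma adjusted p = 0.601 and 0.584).

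Of the 3 CDC-25 phosphatase genes, 2 were called. The gene cdc-25.1, known for its need in germ cell divisions, was at 316, 342 and 298 CPM in control EV, 369, 332 and 331 CPM in control daf-2 RNAi, 228, 269 and 212 CPM in starved EV and 313, 374 and 318 CPM in starved daf-2 RNAi. Starved EV lay below all 9 other libraries. It fell by 0.44 ± 0.13 (log2; limma adjusted p = 0.0364) after long arrest on EV and rose by 0.50 ± 0.13 (limma adjusted p = 0.0225) between the starved groups. The call of the fall was lost in 7 of 12 limma fits that left out 1 library, where its adjusted p reached 0.119. That of the rise was lost in 3 of 12, where its adjusted p reached 0.09.

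Its relative cdc-25.3 was at 31.4, 32.7 and 40.4 CPM in control EV, 36.3, 40.2 and 43.3 CPM in control daf-2 RNAi, 23.2, 27.1 and 24.2 CPM in starved EV and 31.6, 39.4 and 30.8 CPM in starved daf-2 RNAi. It fell by 0.47 ± 0.14 (log2; limma adjusted p = 0.0407), and the starved groups, which did not overlap, differed by 0.43 ± 0.14 (limma adjusted p = 0.0559; 0.00927 with the replicate block). Its exons share 109 bases with trxr-2, where the library kit gives no strand to tell the genes apart. The third member, cdc-25.2, had changes of the opposite sign, 0.25 ± 0.18 and -0.13 ± 0.18, neither called. The phosphatase gene cdc-14 and the APC subunit gene cdc-26 had changes of -0.18 and -0.45 after long arrest on EV and of 0.21 and 0.36 between the starved groups, none called without the block.

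The other 8 CDKs, known mainly from transcription or from neurons, had no call without the block. Their changes after long arrest on EV ran from -0.50 (cdk-11.1) to 0.30 (cdk-14) with 7 of 8 negative, and between the starved groups from -0.23 (cdk-14) to 0.48 (cdk-11.1) with 7 of 8 positive. Their median was -0.21 in the first and 0.27 in the second comparison. For the 16 licensing and helicase genes the medians were -0.31 and 0.39.

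Of the other 9 genes with cdc or mcm symbols, 2 were called. The gene cdc-5L, whose human counterpart is a splicing factor, was at 277, 239.5 and 266 CPM in control EV, 319.6, 291 and 274 CPM in control daf-2 RNAi, 205, 202 and 161 CPM in starved EV and 262, 267 and 194 CPM in starved daf-2 RNAi. It fell by 0.47 ± 0.15 (log2; limma adjusted p = 0.0486), and this call was lost in 11 of 12 fits that left out 1 library. The gene cdc-50.B, which belongs to a family of partners of lipid-flipping membrane ATPases, was at 4.61, 5.004 and 3.86 CPM in control EV, 3.73, 3.93 and 5.53 CPM in control daf-2 RNAi, 7.49, 6.79 and 7.697 CPM in starved EV and 3.39, 3.24 and 5.17 CPM in starved daf-2 RNAi. Its 3 starved EV libraries were above all others. It rose by 0.60 ± 0.19 (limma adjusted p = 0.0443) after long arrest on EV and fell by 0.78 ± 0.19 (log2; limma adjusted p = 0.0192) between the starved groups. Quantile normalization ended both of its calls. The abundant ATPase genes cdc-48.1 and cdc-48.2, whose reads may not be separable, and the cytoskeletal GTPase gene cdc-42 had changes of -0.42, -0.32 and -0.05 after long arrest on EV, none called.

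After the short arrest, no gene of the 51 was called between the daf-2 RNAi label and EV, against 1.39% of all genes tested, and 2 (mcm-6 and cdk-8) had an unadjusted p under 0.05 (limma). On the reads recovered for the 6 control libraries, edgeR and DESeq2 called 0 of 51 as well, with 2 and 3 at an unadjusted p under 0.05, and the limma fit with the replicate block called 0, against 5.81% of all genes. With letter effects of their own in each arrest length, the block called mcm-3, mcm-6 and cdk-8 higher (3 of 51, where it called 11.7% of all genes). The median change was 0.13 against -0.01 for all genes, and 45 of 51 changes were positive. Groups did not overlap for 9 genes with higher levels, 17.6% against 7.01% of all genes, and for 1 with lower levels, 1.96% against 9.13%. The 9 were orc-1, orc-5, cdc-7, mcm-3, mcm-5, mcm-6, mcm-10, cyb-1 and cdk-8. For mcm-3 the nearest libraries were almost level, at 405.5 CPM in control EV A and 405.7 CPM in control daf-2 RNAi C. The largest positive changes were 0.31 ± 0.25 for rnr-1, 0.30 ± 0.18 for mcm-3 and 0.29 ± 0.12 for the Mediator kinase gene cdk-8.

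Between the RNAi groups, 8 days of arrest against 1 day gave no call among the 51 genes (limma; 0 with an unadjusted p under 0.05; 0.701% of all genes called). The median change was -0.07 against 0.01 for all genes and -0.05 for those averaging 5 CPM or more, with 36 of 51 negative. Under quantile normalization 24 were negative and 27 positive. Starved libraries were under the control libraries without overlap for orc-1 and cdc-5L, 3.92% of the set against 5.73% of all genes, with changes of -0.28 ± 0.14 and -0.30 ± 0.15. For no gene of the 51 were they above without overlap, against 9.08% of all genes.

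Whether arrest length acted differently on EV and under the daf-2 RNAi label is the question of the interaction. It was not called for any of the 51 genes, nor for any of the 12830 genes tested (limma, 0%), and with the replicate block for 0 of the 51 and for 0.491% of all genes. With letter effects of their own in each arrest length, 2 of the 51 were called, cdc-25.1 and cdk-11.1, against 6% of all genes. Without the block 2 of the 51 had an unadjusted p under 0.05, cdc-25.1 with 0.39 ± 0.18 and cdc-50.B with -0.74 ± 0.27. The median was 0.22 against 0.02 for all genes, with 47 of 51 positive and all 16 licensing and helicase genes among them. For the genes averaging 5 CPM or more the median was 0.09. Without the block, calls on EV but not under the daf-2 RNAi label are therefore not shown to differ between the feeding groups.

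Other genes of the same processes are given from lists of known factors, chosen with earlier results of these data known. All shares of called genes below are set against 6.12% of all genes lower and 11.5% higher after long arrest on EV, and 11.9% lower and 3.8% higher between the starved groups. Of 33 further replication factors, 8 fell (24.2%) and none rose after long arrest on EV, with a median change of -0.36. The largest falls were -0.59 ± 0.16 for tipn-1, a fork protection factor, -0.52 ± 0.15 for the clamp loader gene rfc-1, -0.51 ± 0.12 for sld-2, a helicase activation factor, and -0.50 ± 0.13 for the flap nuclease gene crn-1 (limma adjusted p = 0.0261, 0.0331, 0.016 and 0.0276). Between the starved groups 4 of the 33 rose (12.1%) and none fell, with a median of 0.34, and 26 were higher with the replicate block, which called 23.7% of all genes higher and 24.3% lower. These were rfc-1 with 0.53 ± 0.15, the chromatin assembly gene chaf-2 with 0.46 ± 0.14, crn-1 with 0.44 ± 0.13 and the DNA ligase gene lig-1 with 0.43 ± 0.14 (limma adjusted p = 0.032, 0.0475, 0.044 and 0.048).

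Of 40 genes of mitosis and the APC, 7 fell (17.5%) and none rose after long arrest on EV, with a median of -0.37. The APC subunit gene apc-11 changed by -0.56 ± 0.17, the spindle midzone gene spd-1 by -0.56 ± 0.14, the kinetochore gene knl-3 by -0.51 ± 0.16 and hcp-3, the gene of centromeric histone H3, by -0.48 ± 0.14 (limma adjusted p = 0.0398, 0.0228, 0.0428 and 0.0347). Between the starved groups 6 of the 40 rose (15%) and none fell, with a median of 0.38, and 38 were higher with the replicate block. They included the securin gene ify-1 with 0.58 ± 0.14, the Polo kinase genes plk-2 with 0.53 ± 0.15 and plk-1 with 0.41 ± 0.13, and the checkpoint gene san-1 with 0.42 ± 0.13 (limma adjusted p = 0.0209, 0.0342, 0.0497 and 0.0492).

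The list of CDK partners, inhibitors and E2F-Rb genes held 21 tested genes, of which 2 rose (9.52%) and 3 fell (14.3%) after long arrest on EV. The CDK inhibitor gene cki-1, of the p27 family, which holds cells out of the cycle, had means of 8.83 ± 2.88 CPM in control EV, 5.08 ± 1.504 CPM in control daf-2 RNAi, 19.4 ± 5.24 CPM in starved EV and 8.13 ± 1.496 CPM in starved daf-2 RNAi (SD, n = 3). It rose by 1.07 ± 0.26 (limma adjusted p = 0.0189) and between the starved groups fell by 1.14 ± 0.26 (log2; limma adjusted p = 0.0152). The CDK-5 activator gene cdka-1 rose by 0.91 ± 0.23 after long arrest on EV, while lin-54, a gene of the DREAM repressor complex, and the cyclin L gene cyl-1 changed by -0.40 ± 0.12 and -0.40 ± 0.12 (limma adjusted p = 0.0228, 0.0413 and 0.0424). Between the starved groups efl-1, an E2F gene, rose by 0.45 ± 0.13 (limma adjusted p = 0.0416), as the only gene of the 21 to do so (4.76%), and with the replicate block 15 were higher and 1 lower.

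Markers of the tissues in a whole worm, from lists also chosen with earlier results known, moved between the same groups. The summed level of the 51 genes was 9973 to 10755 CPM in control EV, 10906 to 13002 CPM in control daf-2 RNAi, 7462 to 9416 CPM in starved EV and 10179 to 12404 CPM in starved daf-2 RNAi. The sum over 25 germline markers was 8819.9 to 11492, 9619 to 13082, 5424 to 8385 and 9227 to 11391 CPM in the same order. For both sums all starved EV libraries were the lowest of the 12. After long arrest on EV 7 of the 25 germline markers fell (28%) and none rose, led by glh-1 (-0.78), pgl-1 (-0.74), fbf-2 (-0.60) and csr-1 (-0.54), and between the starved groups 9 rose (36%) and none fell, led by meg-1 (0.86), htp-3 (0.63), glh-2 (0.60) and deps-1 (0.57). With the replicate block 23 of the 25 were higher between the starved groups.

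Oocyte and eggshell genes summed to 10854 to 13769 CPM in control EV, 13441 to 16459 CPM in control daf-2 RNAi, 9027 to 12095 CPM in starved EV and 13553 to 16188 CPM in starved daf-2 RNAi. Of these 17 genes, 1 fell after long arrest on EV (5.88%; spn-4, -0.54) and 9 rose between the starved groups (52.9%, and 15 genes with the replicate block), led by pie-1 (0.61), spn-4 (0.61), oma-2 (0.59) and oma-1 (0.57). Genes of the moult, which worms complete before adulthood, went the other way. Their sum over 12 tested genes was 60.5 to 152 CPM in control EV, 42.1 to 103.99 CPM in control daf-2 RNAi, 271 to 368 CPM in starved EV and 97.9 to 160.4 CPM in starved daf-2 RNAi. On EV 9 of the 12 (75%) rose after long arrest, led by ptr-4 (2.76), wrt-1 (2.57), mlt-9 (2.56) and mlt-11 (2.43), and 7 (58.3%) fell between the starved groups, led by noah-2 (-1.65) and mlt-8 (-1.42), then ptr-4 (-1.297) and wrt-1 (-1.25). Between the RNAi groups ptr-4, mlt-9 and wrt-1 were called higher after long arrest (25%, where 0.701% of all genes were called). The part of tissue makeup and of developmental stage in the values of the 51 genes was not tested.

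Sperm genes (11 tested) and body muscle genes (10) had no call in these comparisons without the block. Between the starved groups all 10 body muscle genes had negative changes, with a median of -0.46. With the replicate block 7 of them were called lower, where 24.3% of all genes were. All 10 were also negative between the control groups, with a median of -0.38, where that block called 0 of them and 5.81% of all genes. Their summed level was 2678 to 8531.4 CPM in starved EV and 1992.4 to 5169 CPM in starved daf-2 RNAi. All 11 sperm genes had positive changes between the starved groups, with a median of 0.66, and none was called there with the replicate block. Between the RNAi groups all 11 were also positive after long arrest, with a median of 0.45. Sperm genes were few in reads, summing to 30.95 to 104.4 CPM in any library. Of 10 intestinal genes (30% called higher after long arrest on EV, and 10% higher and 30% lower between the starved groups), pgp-1 (2.27), mtl-2 (1.17) and ges-1 (0.51) rose after long arrest on EV, and between the starved groups mtl-2 (-1.36), elt-7 (-0.66) and elt-2 (-0.47) fell and ges-1 (0.63) rose. In the control groups ges-1 rose under the daf-2 RNAi label (1.08). Of 10 neuronal genes (30% called higher after long arrest on EV, and 10% lower between the starved groups), rab-3 (1.34), snt-1 (0.93) and unc-64 (0.69) rose after long arrest on EV, and unc-18 fell between the starved groups (-0.49).

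**Figure D4:**
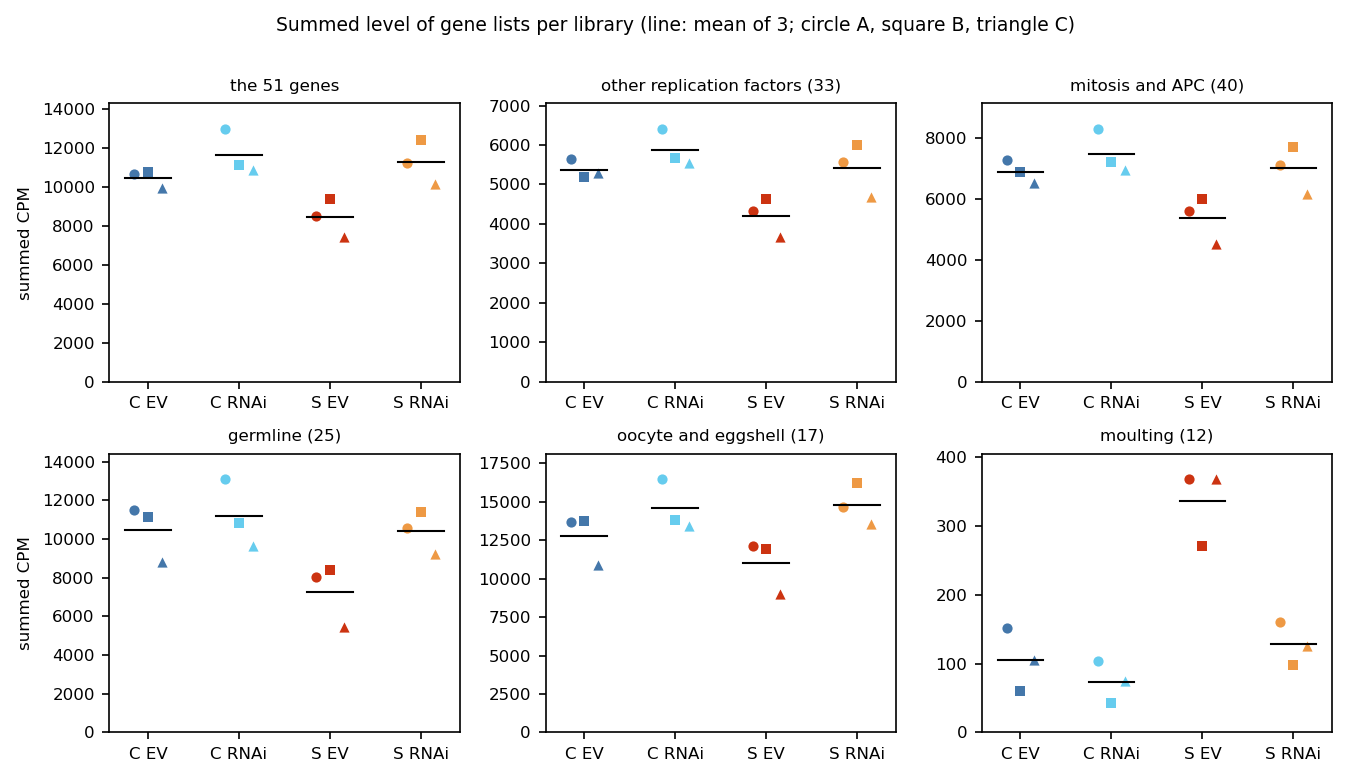
Summed CPM (y axis, from 0) of 6 gene lists in each library, by group on the x axis, with the mean of 3 libraries as a line. For the 51 genes the starved EV libraries (7462 to 9416 CPM) lie under all others, as they do for the germline list (5424 to 8385 CPM), and for the moulting list (271 to 368 CPM) they lie above all others.

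The 51 genes also differed by replicate letter. Libraries A were above libraries C of the same group in all 4 groups for 24 genes (47.1%, against 24.9% of all genes) and below in all 4 for 13 (25.5%, against 29.7%), which left 14 mixed. The first set held mcm-2, mcm-3, mcm-4, mcm-7, rnr-1, cye-1, cyb-1 and cdc-48.1, and the second psf-1, psf-2, psf-3, rnr-2, cdk-1, cdk-2, cyb-2.1 and cyb-2.2. Exon length ran along with this order. Of 19 genes with up to 1500 annotated exon bases, 2 were above and 11 below in all 4 groups, and of 18 genes over 2200 bases 13 were above and 1 below. Spearman's rho of exon length with the mean log2 difference of A minus C was 0.757 over the 51 genes and 0.619 over 12669 genes with a length, as a description across genes that share the same libraries. For the group comparisons the same rho over the 51 genes was 0.04 between the EV groups, 0.28 between the starved groups and 0.42 between the control groups, and over all genes 0.08, 0.02 and 0.18. The letters are replicate letters, and what else they stand for is not given in the sources used here.

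**Figure D5:**
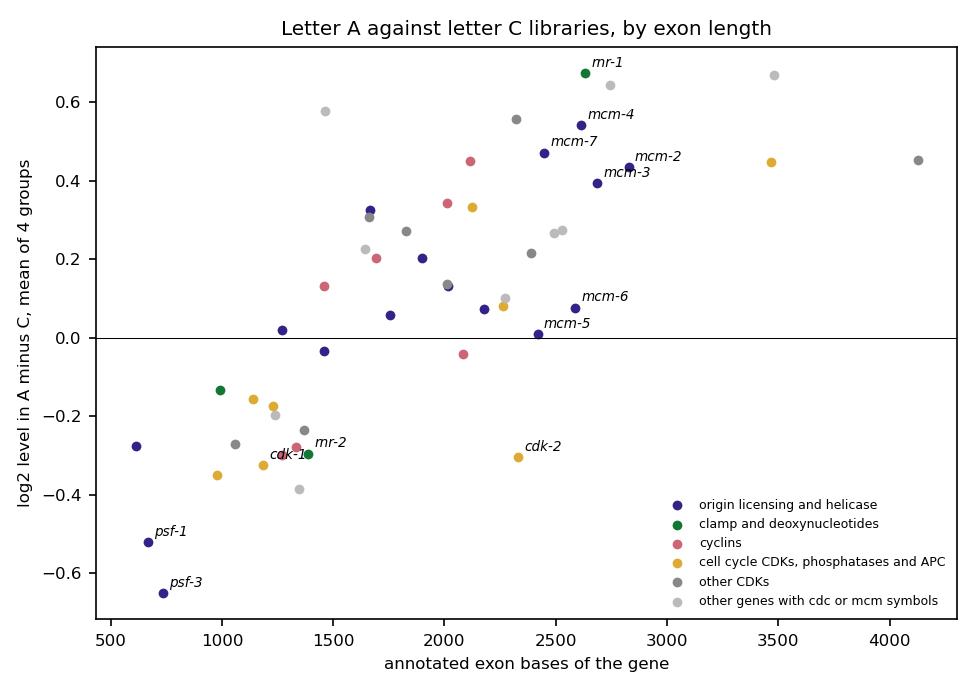
Mean over the 4 groups of the log2 level in library A minus library C (y axis) against annotated exon bases (x axis) for the 51 genes, coloured by role. Short genes such as psf-1 and psf-3 lie below 0 and long ones such as rnr-1 and mcm-4 above it, while mcm-5 and mcm-6 lie near 0.

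By position, 16 of the 51 genes are on chromosome I (31.4%, against 16.6% of the tested genes with a position), 12 on chromosome III and 10 on chromosome II, and 2, cdk-4 and cdk-11.2, on chromosome X (3.92% against 14.2%). Some lie side by side on chromosome IV of WBcel235. The genes orc-5 (10732832 to 10734588, reverse strand) and cyb-1 (10735216 to 10737177, forward strand) point away from each other with 627 bases between them, and both were called higher in starved daf-2 RNAi than in starved EV. The genes cdc-73 (4042575 to 4047572, forward strand), of the PAF1 transcription complex, and pcn-1 (4047937 to 4049448, reverse strand) point toward each other with 364 bases between them, and their changes between the starved groups were 0.40 and 0.42. Exons of 25 of the 51 genes share bases with another annotated gene, 6 of them (cdc-14, cdc-25.3, cdk-2, cdk-8, cya-1 and mcm-10) by at least 100 bases with a single gene, and their values may hold reads of that gene. The same limit holds for genes named from the other lists. There knl-3 shares 568 exon bases with T10B5.3, csr-1 438 with frpr-10 and san-1 163 with ZC328.3. The gene mlt-11 shares 112 with W01F3.5, and deps-1 109 with Y65B4BL.7.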

How the data were processed

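The authors deposited 1 table of normalised signal values, that is counts scaled to a library size they adjusted (CPM), for 12 libraries made with a kit that keeps no strand. Per the labels, 500 ng of RNA and 12 PCR cycles were used at 20 °C recovery. The submitters' processing notes list edgeR, HTSeq 0.12.4 and Bowtie 1.1.2 with no role, and a genome build is not given in the sources used here. Here the planned test assumed plain CPM and was kept for this signal. Each column is made of whole steps, with 100% of values within 0.01 of a whole multiple, which gave the depths where a step is a read. In 9 of 12 columns the steps qualified as reads for count tests, so edgeR 4.0.16 and DESeq2 1.42.0 were run on the control groups only.

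Sequence names matched WBcel235 for 12732 of 12894 genes. The test took the 12830 genes that reached 1 CPM in 3 or more libraries and left out 64. With limma 3.58.1 in R 4.3.3, a trended fit was made to log2(CPM + 1) over 4 groups and all 12 libraries, with two-sided tests, Benjamini-Hochberg adjustment per comparison (5 in all) and a threshold of 0.05. Fold changes are on that scale, which understates changes of low genes. A called gene is past that threshold, and rose or fell is written of called genes only. An exact test of 3 against 3 libraries cannot go below p = 0.1.

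The members and lists were chosen with earlier results of these data known. Values in every library are given for the members called in any comparison and for mcm-2 to mcm-7, cdk-1, cdk-2, cdk-4, cye-1, cyd-1, cyb-1, cyb-3, pcn-1, rnr-1 and rnr-2, and up to 4 called genes per list and comparison are named. Deviations of same-lettered libraries from their group means correlated at 0.821, 0.596 and 0.593 (starved, A, B and C) and 0.695, 0.55 and 0.541 (control) between EV and RNAi, so the letters pair these libraries by the data, not the labels. Across arrest lengths the same correlations were 0.645, 0.0848 and 0.659 (EV, letters A, B and C) and 0.487, -0.0952 and 0.579 (RNAi). Letters A and C went together there and letter B did not, so blocked counts for those comparisons stand among the alternatives only. The replicate block gives each letter 1 effect over all 4 groups, and a block with letter effects of their own in each arrest length was added after seeing the data for the RNAi comparisons and the interaction.

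Replicates within groups correlated at 0.972 to 0.994, and pairs differed by more than counting error. Sequences were not used here.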

Additional observations from a re-analysis of the deposited data

How the results depend on the processing

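In all fits run, no change of a member that was called reversed its sign. Of 4845 changes of members under an alternative, 4606 kept their side of the threshold, 116 lost a call and 123 gained one. Only called changes can lose a call, 7 for starved EV against control EV and 8 for starved daf-2 RNAi against starved EV. Fits that left out 1 library made up 51 and 50 of the losses in these comparisons. Of 12 such fits, calls of the first were lost in 5 for orc-1, 4 for orc-5, 9 for cdc-6 and 7 for cdc-25.1. The numbers were 7 for cdc-25.3, 11 for cdc-5L and 8 for cdc-50.B. Calls of the second were lost in 4 for orc-3, 7 for orc-5, 10 for mcm-5 and 8 for mcm-6. Here the others were 4 for cyb-1, 10 for cyb-3, 3 for cdc-25.1 and 4 for cdc-50.B. For starved EV against control EV, where 7 members were called, the count was 1 with quantile normalization (11.6% of all genes) and 34 with the replicate block (49.7%). It was 0 to 8 when 1 library was left out (5.26% to 19.4% of all genes). Testing only genes averaging 5 CPM or more gave 5 (15.1% of these genes). For starved daf-2 RNAi against starved EV, with 8 called, it was 43 with the replicate block (47.9% of all genes) and 6 with quantile normalization (14.2%). Of these 6, 4 were among the 8 and 2 were new. Leaving out 1 library gave 0 to 12 (5.34% to 16.3% of all genes), and testing only genes averaging 5 CPM or more gave 8 (15% of these). The pairing check supports pairing by letter within each arrest length only, since across arrest lengths letters A and C went together and B did not. The replicate block nonetheless gives each letter 1 effect over all 4 groups, and the adjusted p given with it rest on that. The other 3 comparisons had 0 calls under every other alternative run, leaving out a library (0 to 0) and the shared block included, apart from the next one. A replicate block within each arrest length, chosen after seeing the data, gave 45 calls between the starved groups (57.7% of all genes), 3 between the control groups (11.7%) and 2 for the interaction (6%). Median-ratio scaling, chosen after seeing the data, gave 8 calls in each of the first 2 comparisons (18.2% and 15.1% of all genes). The planned edgeR and DESeq2 tests were not run for the 4 comparisons that use starved libraries, because the steps of 3 starved columns did not qualify as reads. The cause of the changed counts was not tested, except that leaving out a library reduces the number of libraries. Low members (cdk-14, cdc-50.B, psf-2) rest on as few as 90, 83 and 85 reads in the 9 libraries with recovered reads.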
